A study of Mus musculus with 6 samples.

Results

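The 43 genes described here encode the proteins of blood coagulation and fibrinolysis, together with the macroglobulins and 2 related plasma serine proteases, one of which activates hepatocyte growth factor. They were taken from the table by gene symbol and make up 43 of the 23282 genes in the deposited table. The rule uses no measured value, but the list was drawn up with earlier results of these data known. All 43 symbols were present, and 39 had enough counts to be tested. Primary hepatocytes from C57BL6/N mice were left untreated (control, 3 samples) or received recombinant IL-1β protein for 24 h (IL-1β, 3 samples), and RNA was sequenced with a QuantSeq 3′ mRNA-Seq kit, in which reads come from the 3′ ends of mRNAs. The labels give no dose for the sequenced cultures and no age of the mice. The design text names 2 samples per group yet numbers them to 3, and all 3 were used. The cells were plated after collagenase perfusion of the liver and filtering, so the cultures could hold other liver cells beside hepatocytes. The labels do not say whether the samples came from separate cultures or animals, so the p-values measure only the spread between these samples.

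Most soluble clotting factors are made by hepatocytes and circulate as inactive precursors. A tissue factor-driven and a contact-driven arm converge on factor X, which with its cofactor factor V turns prothrombin into thrombin, and thrombin turns fibrinogen into fibrin. Antithrombin and the protein C system restrain thrombin formation, and plasmin, made from plasminogen, dissolves fibrin. Fibrinogen is a classical acute-phase protein of the liver, and IL-1β is one of the cytokines of the acute-phase response.

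The libraries held 9538741 to 11105408 counts, of which the 43 genes took 0.964% to 1.13%. Counting at the 3′ end gives reads from one end of a transcript, so levels were compared between groups for each gene and not between genes. Levels are given as CPM (the counts of a gene after bringing all libraries to one size by the TMM method). On this scale 3 counts correspond to 0.2685 to 0.3207 CPM, a limit that covers counting error only. In the edgeR quasi-likelihood test over 11657 genes, 1563 passed an adjusted p of 0.05. Of these, 52.0% were higher after IL-1β, and scaling by total counts alone made that share 39.6%.

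Across the 39 tested coagulation, fibrinolysis and macroglobulin genes, lower transcript levels after IL-1β were the more frequent change. Because the list was chosen with earlier results of these data known, no test was run over it as a set. At an adjusted p below 0.05 (edgeR), 17 genes were lower and 5 were higher, which is 43.6% and 12.8% of those tested, whereas 6.44% and 6.97% of all tested genes were lower and higher (13.4% in either direction). The median log2 fold change of the 39 genes was -0.25, against -0.002 for all tested genes, and 30 of the 39 had a value below 0. Lower levels were not particular to these genes, since 7 of 10 hepatocyte markers were lower and 1 higher, with a median of -0.30. Whether the 39 genes differ from other hepatocyte genes was not tested. In 24 of the 39 all IL-1β samples lay below all control samples, and in 5 all lay above, against 14.2% and 14% of all tested genes. The shares of all tested genes given here are also the background for the counts by role and of markers below. Most decreases were small. Of the 17 lower genes 6 exceeded a 1.5-fold change, and of the 5 higher genes 4 did. Over the whole table, 361 of the 751 lower and 408 of the 812 higher genes did. Those 361 and 408 genes are 3.1% and 3.5% of all 11657 tested genes. The plot of log2 fold changes by role shows Serpinf2 far below every other member. The counts depended on single libraries, here and over all tested genes. The lower count was 9 without control replicate 2, and 10 when IL-1β replicate 1 or, in its place, IL-1β replicate 2 was left out. Over all tested genes the lower count was 596, 547 and 517 in these fits, against 751. Among the members, the higher count was 3 without control replicate 2, IL-1β replicate 2 or IL-1β replicate 3. Over all tested genes the higher count was 661, 614 and 625 in these fits, against 812. Calls held for 9 genes whichever library was left out, namely Serpinf2, Proc, Serpina10, F5, Hrg, F10 and Pzp among the lower and Cpb2 and Procr among the higher.

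**Figure D1:**
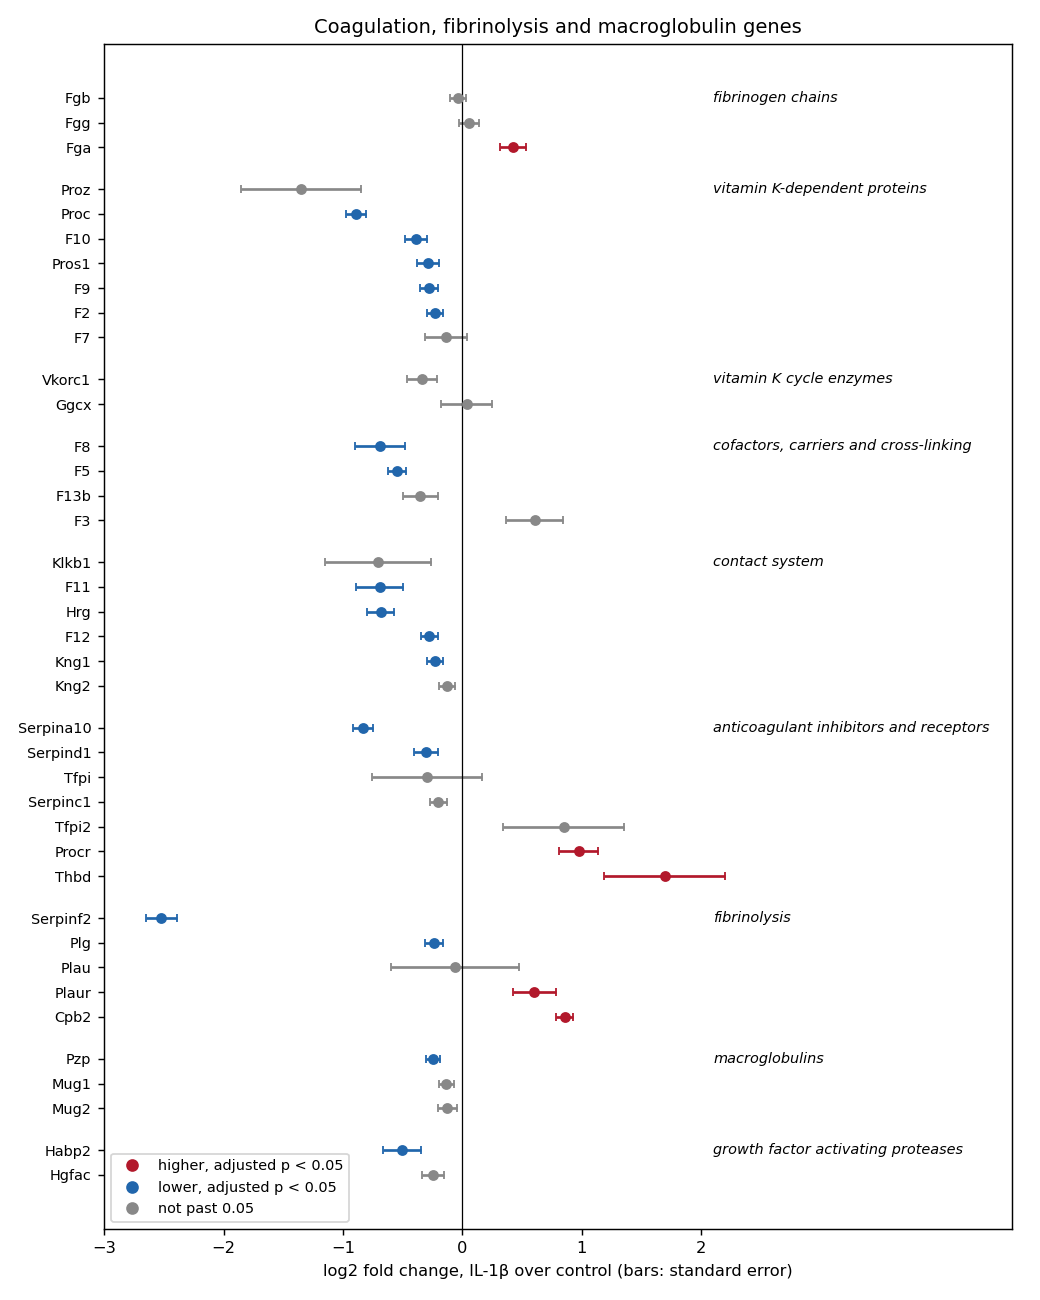
Log2 fold change of each of the 39 tested genes (horizontal axis, IL-1β over control; bars are standard errors (SE) of the edgeR fit, 3 samples per group), grouped by role, with the 5 higher genes in red, the 17 lower genes in blue and the others in grey. Serpinf2 lies at -2.52, while Thbd, at 1.69, has a wide error.

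The largest change among these genes was in fibrinolysis, where transcripts of 2 plasma inhibitors of the process moved in opposite directions. Serpinf2 encodes alpha-2-antiplasmin, the main fast inhibitor of plasmin in plasma. Its levels were 90.8, 76.0 and 84.0 CPM in the control samples and 14.1, 18 and 11.6 CPM after IL-1β. Every IL-1β sample was therefore far below every control. The means were 83.6 ± 7.39 CPM and 14.6 ± 3.20 CPM (SD, n = 3), a 5.74-fold lower level, with a log2 fold change of -2.52 (SE, the standard error of that value, 0.13, adjusted p = 7.4e-14, edgeR). Leaving out single libraries moved it between -2.70 and -2.37.

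Cpb2 encodes carboxypeptidase B2, also called thrombin-activatable fibrinolysis inhibitor, which trims the lysine residues of fibrin that bind plasminogen. Control samples held 437, 504 and 527 CPM, and IL-1β samples held 860.5, 905 and 888 CPM. The groups did not overlap, and the IL-1β samples were close to each other. The means rose from 489 ± 46.8 CPM to 885 ± 22.6 CPM (SD, n = 3), which is 1.81-fold, with a log2 fold change of 0.86 (SE 0.068, adjusted p = 5.4e-10, edgeR). It stayed between 0.78 and 0.91 without single libraries.

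The stretches around the start sites of these 2 genes are shown because Serpinf2 had the largest decrease and Cpb2 the smallest adjusted p among the increases. They are RefSeq sequences of GRCm38.p6, from 250 bases before to 50 after the annotated start, read 5′ to 3′ along the transcribed strand. Capitals mark matches, on either strand, to 6 short motifs of hepatic and cytokine-responsive factors, namely HNF4 (CAAAGTCCA), HNF1 (GTTAAT, any 2 bases, TT), C/EBP (TTGCNNAA), an IL-6 response element (CTGGGAA), STAT3 (TTCCNGGAA) and NF-kB (GGGA, any 2 bases, TTCC). The last 3 share the letters GGAA or their complement and can overlap. The Serpinf2 window is chr11:75439452-75439751, minus strand, and the Cpb2 window is chr14:75242037-75242336, plus strand.
Serpinf2: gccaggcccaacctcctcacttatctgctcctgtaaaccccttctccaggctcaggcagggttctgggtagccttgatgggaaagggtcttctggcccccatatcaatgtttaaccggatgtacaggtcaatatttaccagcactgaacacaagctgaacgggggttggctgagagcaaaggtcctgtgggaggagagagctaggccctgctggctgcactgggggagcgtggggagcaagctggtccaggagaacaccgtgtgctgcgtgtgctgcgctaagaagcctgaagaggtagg
Cpb2: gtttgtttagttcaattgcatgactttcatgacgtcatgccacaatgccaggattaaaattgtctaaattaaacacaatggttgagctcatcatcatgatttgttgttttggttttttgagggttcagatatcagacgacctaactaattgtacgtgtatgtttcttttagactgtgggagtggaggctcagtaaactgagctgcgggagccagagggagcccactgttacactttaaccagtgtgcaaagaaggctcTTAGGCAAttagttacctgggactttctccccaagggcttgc
No motif matched in the Serpinf2 window, so it has no capitals. The Cpb2 window holds 1 C/EBP match, from base 9 to base 16 after the start. Such a match is common, since 10.8% of 32851 promoters of this length hold one. Of the 43 genes, 34 had a promoter in this set, and 13 of those held a C/EBP match, 6 an IL-6 response element match (11.1% of all promoters), 4 an HNF1 match (1.03%), 3 a STAT3 match (1.15%), and 0 a match to HNF4 (0.475%) or NF-kB (1.47%). A match of letters does not show that a factor binds. Each motif was searched as 1 fixed pattern, so sites that differ from it were missed. A 0 for a pattern this rare in all promoters does not show that sites are absent.

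The other fibrinolysis genes had smaller differences or few counts. Plg, which encodes plasminogen, was at 265, 234 and 243 CPM in controls and 193, 205 and 232 CPM after IL-1β. The highest IL-1β sample was just below the lowest control. Its log2 fold change was -0.24 (SE 0.075, adjusted p = 0.0345, edgeR). The call was lost without control replicate 1 (adjusted p = 0.0964), control replicate 3 (0.0524), IL-1β replicate 1 (0.248) or IL-1β replicate 2 (0.156).

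Plaur, the receptor that holds urokinase on the cell surface, was higher after IL-1β. Controls held 12.3, 9.49 and 13 CPM and IL-1β samples 14.2, 21.6 and 16.8 CPM. All IL-1β samples lay above all controls, with a narrow gap. The log2 fold change was 0.60 (SE 0.18, adjusted p = 0.0236, edgeR), a call lost without control replicate 2 (adjusted p = 0.124), IL-1β replicate 2 (0.209) or IL-1β replicate 3 (0.0607). Urokinase itself (Plau) was measured at only 0.605 to 1.78 CPM in controls and 0.641 to 1.49 CPM after IL-1β, with a log2 fold change of -0.06 (SE 0.54, adjusted p = 0.97, edgeR), a precision at which only a large change could be detected. Tissue plasminogen activator (Plat) was not tested. It had 6, 3 and 7 counts in the control libraries and 8, 12 and 22 in the IL-1β libraries, so the groups did not overlap at these low counts.

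**Figure D2:**
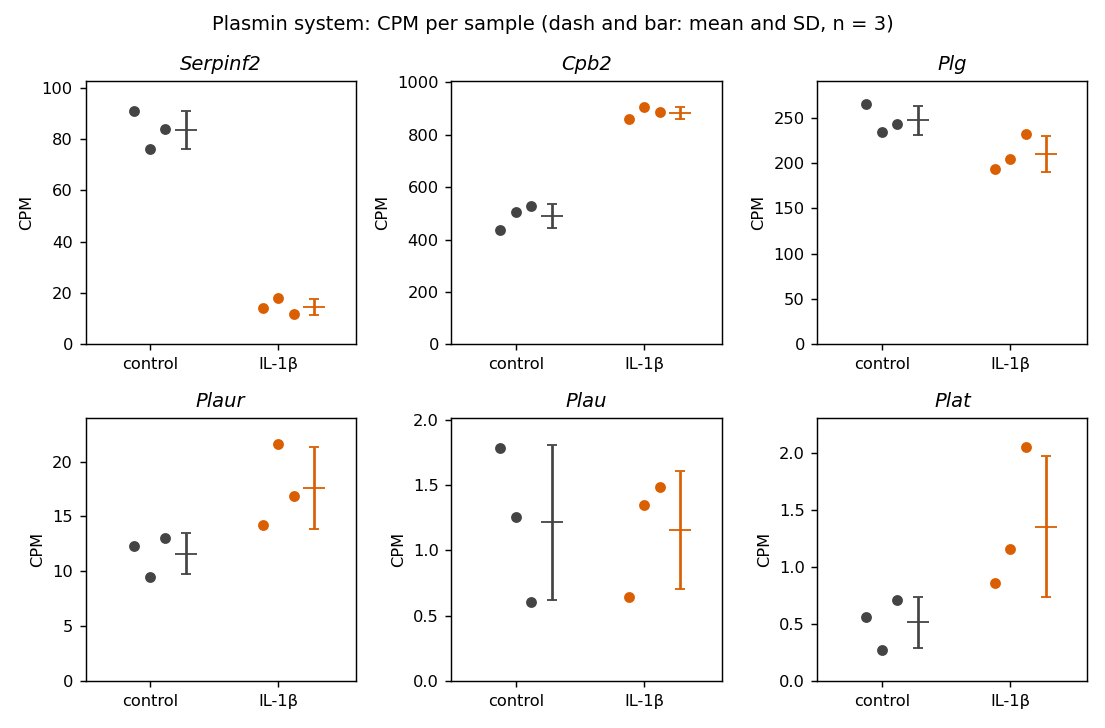
CPM in each sample (points; vertical axes start at 0 and differ between panels) of the 6 fibrinolysis genes in control and IL-1β hepatocytes, with the mean and SD beside them (n = 3). Serpinf2 fell from 76.0 to 90.8 CPM to 11.6 to 18 CPM, Cpb2 rose without overlap, and the groups of Plau overlap. Plat, which was not tested, rests on at most 22 counts in a library.

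Genes that restrain coagulation changed in both directions. Of 7 anticoagulant inhibitors and receptors, 2 were higher (Procr and Thbd) and 2 lower (Serpina10 and Serpind1), with a median log2 fold change of -0.20. Over all tested genes, 6.97% were higher and 6.44% lower. The vitamin K-dependent proteins C and S, which act with Procr and Thbd, were both lower. Proc encodes protein C, the precursor of the protease that inactivates factors V and VIII. It was measured at 106, 122 and 107 CPM in controls and at 64.6, 59.1 and 57.6 CPM after IL-1β. The groups were well apart. The means were 112 ± 9.11 and 60.4 ± 3.66 CPM (SD, n = 3), with a log2 fold change of -0.89 (SE 0.086, adjusted p = 2.1e-08, edgeR), and it was called in all 6 fits that left out a library.

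Pros1, which encodes the protein C cofactor protein S, was at 80.3, 101 and 105 CPM in controls and 81.5, 76.3 and 76.5 CPM after IL-1β. One control lay within the range of the IL-1β samples. It was lower by a log2 fold change of -0.29 (SE 0.093, adjusted p = 0.0372, edgeR). That call was lost without control replicate 2 (adjusted p = 0.163), control replicate 3 (0.192), IL-1β replicate 1 (0.0766), IL-1β replicate 2 (0.142) or IL-1β replicate 3 (0.143).

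Receptors of the same system were higher. Procr, the endothelial protein C receptor, which presents protein C for activation, was at 9.11, 9.58 and 11.9 CPM in controls and 18.9, 22.2 and 18.9 CPM after IL-1β. All IL-1β samples were above all controls. The level rose 1.96-fold, from 10.2 ± 1.49 to 20.0 ± 1.90 CPM (SD, n = 3), with a log2 fold change of 0.97 (SE 0.16, adjusted p = 9.4e-05, edgeR), and the call held without any single library.

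Thbd encodes thrombomodulin, which turns thrombin from a clotting enzyme into the activator of protein C. Its libraries held 3, 10 and 21 counts in controls and 43, 21 and 43 counts after IL-1β, that is 0.282, 0.895 and 2.12 CPM against 4.6, 2.02 and 4.0 CPM. The highest control exceeded the lowest IL-1β sample. The log2 fold change was 1.69 (SE 0.50, adjusted p = 0.0244, edgeR), a call lost without control replicate 1 (adjusted p = 0.0841), control replicate 2 (0.0954), IL-1β replicate 1 (0.15) or IL-1β replicate 3 (0.124). Procr and Thbd are known for their place on endothelium. The summed level of 12 endothelial markers was 88.9 to 96.5 CPM in controls and 85.8 to 90.2 CPM after IL-1β. Of the 10 tested markers 1 was higher and 2 were lower, with a median log2 fold change of -0.41, and none was at 0 in every library. The part of endothelial cells in the Procr and Thbd values was not tested.

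Serpina10 encodes the protein Z-dependent protease inhibitor, which acts on factor Xa with protein Z as its cofactor. It was at 148.5, 177 and 152 CPM in controls and 82.5, 92.0 and 93.0 CPM after IL-1β. Again the groups were well apart, at 159 ± 15.4 and 89.2 ± 5.77 CPM (SD, n = 3), with a log2 fold change of -0.83 (SE 0.082, adjusted p = 2.9e-08, edgeR), called in all 6 fits that left out a library. Its cofactor Proz had few counts, at 1.22, 2.60 and 4.53 CPM in controls and 0.962, 0.672 and 1.58 CPM after IL-1β. These groups overlapped, and the log2 fold change of -1.35 (SE 0.50, adjusted p = 0.081, edgeR) did not pass the threshold. Without control replicate 1 its adjusted p was 0.0129.

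Serpins that act directly on thrombin had small differences. Serpind1 (heparin cofactor II) had 49.0, 48.8 and 48.8 CPM in controls and 42.5, 39.4 and 36.7 CPM after IL-1β. The IL-1β samples lay below the tightly grouped controls, with a log2 fold change of -0.31 (SE 0.099, adjusted p = 0.0399, edgeR). This call was lost without control replicate 1 (adjusted p = 0.0591), control replicate 2 (0.0964), control replicate 3 (0.0837), IL-1β replicate 2 (0.117) or IL-1β replicate 3 (0.186). Serpind1 overlaps Pi4ka, which is on the opposite strand, and the sources used here do not say whether counting used strand, so its reads are not certain.

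Serpinc1, which encodes antithrombin, was at 260, 252 and 228 CPM in controls and 211, 209 and 224 CPM after IL-1β. The groups did not overlap, by a narrow margin, but the log2 fold change of -0.20 (SE 0.070, adjusted p = 0.058, edgeR) missed the threshold. The adjusted p was 0.0251 without control replicate 3 and 0.012 with total-count scaling. The inhibitors of the tissue factor pathway, Tfpi and Tfpi2, were at most 2.98 and 3.96 CPM in any sample, and their log2 fold changes of -0.30 (SE 0.46) and 0.85 (SE 0.51) did not pass the test (adjusted p = 0.78 and 0.34, edgeR).

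**Figure D3:**
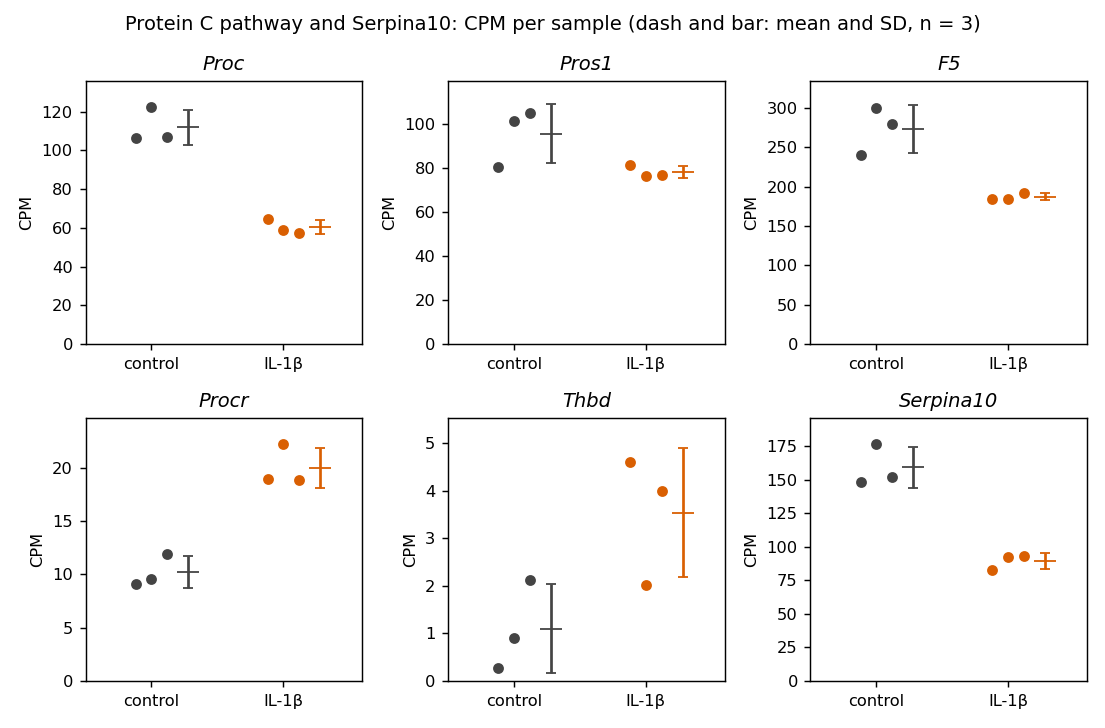
CPM in each sample (points; vertical axes start at 0 and differ between panels) of 4 genes of the protein C system, F5, which encodes a substrate of activated protein C, and Serpina10, with the mean and SD beside them (n = 3). Proc, F5 and Serpina10 were lower after IL-1β without overlap, Procr was higher without overlap, and the groups of Pros1 and Thbd overlap.

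All 7 vitamin K-dependent proteins, which carry carboxylated glutamate residues that bind calcium, had log2 fold changes below 0. Their median was -0.29, 5 of 7 were called lower, namely F2, F9, F10, Proc and Pros1, and 0 were higher. The shares of all tested genes were 6.44% lower and 6.97% higher. F10 encodes factor X, whose active form cleaves prothrombin. It was at 78.1, 64.5 and 73.0 CPM in controls and 55.3, 57.8 and 51.8 CPM after IL-1β. The groups did not overlap, the log2 fold change was -0.39 (SE 0.093, adjusted p = 0.0053, edgeR), and the call held without any single library.

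F2, which encodes prothrombin, was at 469, 524 and 518 CPM in controls and 405, 461 and 426 CPM after IL-1β. The groups lay side by side without overlap, with a log2 fold change of -0.23 (SE 0.067, adjusted p = 0.0241, edgeR). The call was lost without control replicate 2 (adjusted p = 0.133), control replicate 3 (0.077), IL-1β replicate 1 (0.177) or IL-1β replicate 3 (0.0958).

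F9 (factor IX) had 119, 126 and 116 CPM in controls and 92.9, 98.5 and 105.5 CPM after IL-1β. These too did not overlap, and the log2 fold change was -0.28 (SE 0.078, adjusted p = 0.0147, edgeR). This call was lost without control replicate 2 (adjusted p = 0.0835), IL-1β replicate 1 (0.119) or IL-1β replicate 2 (0.0684). F7 (factor VII, the partner of tissue factor) ranged from 11.6 to 16.9 CPM in controls and from 12.3 to 15.6 CPM after IL-1β, with a log2 fold change of -0.14 (SE 0.17, adjusted p = 0.71, edgeR). The F7, F10 and Proz genes are neighbours on chromosome 8 of GRCm38, at 13026034 to 13035805, 13037308 to 13056676 and 13060908 to 13075006, all on the plus strand. Of these neighbours, F10 alone passed the test, and differences between their changes were not tested.

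Neither enzyme of the vitamin K cycle passed the test. Vkorc1, the reductase that regenerates vitamin K, was at 34.4, 28.6 and 29.8 CPM in controls and 23.9, 21.9 and 27.3 CPM after IL-1β. The IL-1β samples lay below the controls, but the log2 fold change of -0.34 (SE 0.12) had an adjusted p of 0.076 in edgeR, and 0.0319 with total-count scaling. Of the 75 nt windows in the last 500 nt of its transcripts, 58% also occur in transcripts of Gm21974, so its reads may be shared. Ggcx, the carboxylase that adds the carboxyl groups, was at 7.52 to 8.64 CPM in controls and 6.72 to 9.62 CPM after IL-1β, with a log2 fold change of 0.04 (SE 0.21, adjusted p = 0.95, edgeR).

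Of 4 tested genes for cofactors, carriers and cross-linking, 2 (F5 and F8) were lower and 0 higher, against 6.44% and 6.97% of all tested genes. F5 encodes factor V, which speeds prothrombin cleavage by factor Xa. Levels were 240.1, 299 and 279.5 CPM in controls and 185, 185 and 192 CPM after IL-1β. The groups did not overlap, and the controls were spread more widely than the IL-1β samples (273 ± 30.1 and 187 ± 4.40 CPM, SD, n = 3). The log2 fold change was -0.54 (SE 0.076, adjusted p = 7.6e-06, edgeR), called in all 6 fits that left out a library. A predicted gene on the opposite strand, Gm16548, overlaps F5.

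F8, which encodes factor VIII, the cofactor of factor IX, was at 9.30, 12.7 and 12.2 CPM in controls and 6.20, 8.65 and 6.32 CPM after IL-1β. The groups did not overlap, with a log2 fold change of -0.69 (SE 0.21, adjusted p = 0.0288, edgeR). It was no longer called without control replicate 2 (adjusted p = 0.126), control replicate 3 (0.0918), IL-1β replicate 1 (0.127) or IL-1β replicate 3 (0.131). In the liver F8 is known mainly from endothelial cells, and in bulk samples fewer cells of a type and less RNA per cell cannot be told apart. The summed endothelial markers were 88.9 to 96.5 CPM in controls and 85.8 to 90.2 CPM after IL-1β, the median of the 10 tested was -0.41, and their part in the F8 value was not tested. Vwf, the carrier of factor VIII and an endothelial and platelet gene, had 0 to 3 counts in the control libraries and 0 to 4 counts in the IL-1β libraries and was not tested.

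F3, which encodes tissue factor, the starter of coagulation, was the one cofactor with a positive value. It was at 7.42, 4.21 and 9.47 CPM in controls and 10.9, 9.80 and 11.2 CPM after IL-1β. All IL-1β samples were above all controls, by a narrow margin, but the log2 fold change of 0.61 (SE 0.24) had an adjusted p of 0.104 in edgeR. That p was 0.025 without control replicate 3 and 0.0492 when no filter on low counts was applied. F13b, the carrier subunit of the fibrin-cross-linking factor XIII, had 19.6 to 22 CPM in controls and 13.8 to 18.9 CPM after IL-1β, with a log2 fold change of -0.35 (SE 0.15, adjusted p = 0.13, edgeR). The catalytic subunit gene F13a1 had 0 counts in all 6 libraries, which allows up to 0.2685 to 0.3207 CPM.

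The contact system starts clotting on charged surfaces and releases kinins. Its genes were listed together with Hrg, a relative of the kininogens that is not itself a contact factor. Of the 6 genes of this list, 4 were lower and 0 higher (6.44% and 6.97% of all tested genes). In all 6 every IL-1β sample lay below every control, which held for 14.2% of all tested genes. The median log2 fold change of the list, Hrg included, was -0.48, and F11, F12, Kng1 and Hrg passed the test. Hrg encodes histidine-rich glycoprotein, which binds heparin and plasminogen and is related to the kininogens. It was at 51.5, 59.8 and 48.4 CPM in controls and 36.6, 29.3 and 33.6 CPM after IL-1β. The groups were well apart, with a log2 fold change of -0.68 (SE 0.11, adjusted p = 6.3e-05, edgeR), and the call held without any single library.

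F11 (factor XI, which activates factor IX) had 12.0, 13.1 and 11.6 CPM in controls and 8.34, 8.07 and 6.32 CPM after IL-1β. The groups were apart at these low levels, and the log2 fold change was -0.69 (SE 0.19, adjusted p = 0.0158, edgeR). The call was lost without control replicate 2 (adjusted p = 0.0659) or IL-1β replicate 3 (0.0956). F12 encodes factor XII, the protease at the start of the contact system. It was at 235, 269 and 246 CPM in controls and 210.0, 200.5 and 209 CPM after IL-1β. Its groups did not overlap either, and the log2 fold change was -0.28 (SE 0.069, adjusted p = 0.0071, edgeR), with an adjusted p of 0.076 without control replicate 2 and 0.0559 without IL-1β replicate 2. Klkb1, plasma prekallikrein, lies next to F11 on chromosome 8 and was at 0.837 to 3.01 CPM over all samples, with a log2 fold change of -0.71 (SE 0.44, adjusted p = 0.37, edgeR).

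Kng1 and Kng2 encode kininogens, the precursors of bradykinin. Kng1 was at 878, 778 and 748 CPM in controls and 693, 651 and 704 CPM after IL-1β. The groups did not overlap, and the log2 fold change was -0.23 (SE 0.066, adjusted p = 0.0184, edgeR). The call was lost without control replicate 1 (adjusted p = 0.0749), IL-1β replicate 1 (0.0641) or IL-1β replicate 2 (0.135). Kng2, at 329 to 358 CPM in controls and 295 to 322 CPM after IL-1β, had a log2 fold change of -0.13 (SE 0.065, adjusted p = 0.235, edgeR). Because 4.23% of the 3′ windows of Kng1 and 8.6% of those of Kng2 occur in the other gene, their counts were also summed. The sum was lower, at 1141 ± 84.2 CPM in controls and 992 ± 41.9 CPM after IL-1β (SD, n = 3), with a log2 fold change of -0.20 (SE 0.063, adjusted p = 0.0348, edgeR). For the sum, the call was lost without control replicate 1 (adjusted p = 0.126), control replicate 2 (0.066), IL-1β replicate 1 (0.102), IL-1β replicate 2 (0.205) or IL-1β replicate 3 (0.0577). The log2 ratio of Kng1 to Kng2 within a sample was lower by -0.10 after IL-1β, with no overlap (p = 0.1 in a two-sided exact permutation test, the least that 3 samples against 3 allow, and 0.167 adjusted over 5 ratios).

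Fibrinogen is assembled from alpha, beta and gamma chains, encoded by Fga, Fgb and Fgg within one stretch of chromosome 3. Of the 3 chains, only Fga was called higher. Fga was at 33.1, 38.5 and 41.7 CPM in controls and 46.9, 55.9 and 49.3 CPM after IL-1β. All IL-1β samples were above all controls, and the level was 1.34-fold higher with a log2 fold change of 0.43 (SE 0.11, adjusted p = 0.0076, edgeR). Without IL-1β replicate 2 the adjusted p was 0.0716.

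Fgb was at 4384, 5197 and 5033 CPM in controls and 4467, 5262 and 4521 CPM after IL-1β. Fgg was at 168, 204 and 208 CPM in controls and 193, 222 and 186 CPM after IL-1β. In both genes the groups overlapped. Their log2 fold changes were -0.04 (SE 0.068, adjusted p = 0.82, edgeR) and 0.06 (SE 0.083, adjusted p = 0.76, edgeR). The sum of the chains was 5102 ± 455 CPM in controls and 5001 ± 468 CPM after IL-1β (SD, n = 3), with a log2 fold change of -0.03 (SE 0.068, adjusted p = 0.866, edgeR), and Fgb gave most of the counts in that sum.

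Ratios within a sample compare the chains with less influence from differences between libraries. The log2 ratio of Fga to Fgb was -7.01, -7.04 and -6.88 in controls and -6.54, -6.53 and -6.49 after IL-1β, a difference of 0.45. That of Fga to Fgg differed by 0.36 and that of Fgg to Fgb by 0.09. In the first and second ratio all IL-1β samples were above all controls (p = 0.1 for each in a two-sided exact permutation test, the least possible here, and 0.167 adjusted over 5 ratios), while in the third the groups overlapped (exact p = 0.2, 0.25 adjusted). The deposited interval of Fga ends at base 83033617. One annotated transcript, Fga-201, ends 1354 bases before that point, and another, Fga-202, ends 10 bases after it. Whether reads at the earlier end were counted for Fga is not given in the sources used here, so its counts may hold one of its transcript ends only.

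**Figure D4:**
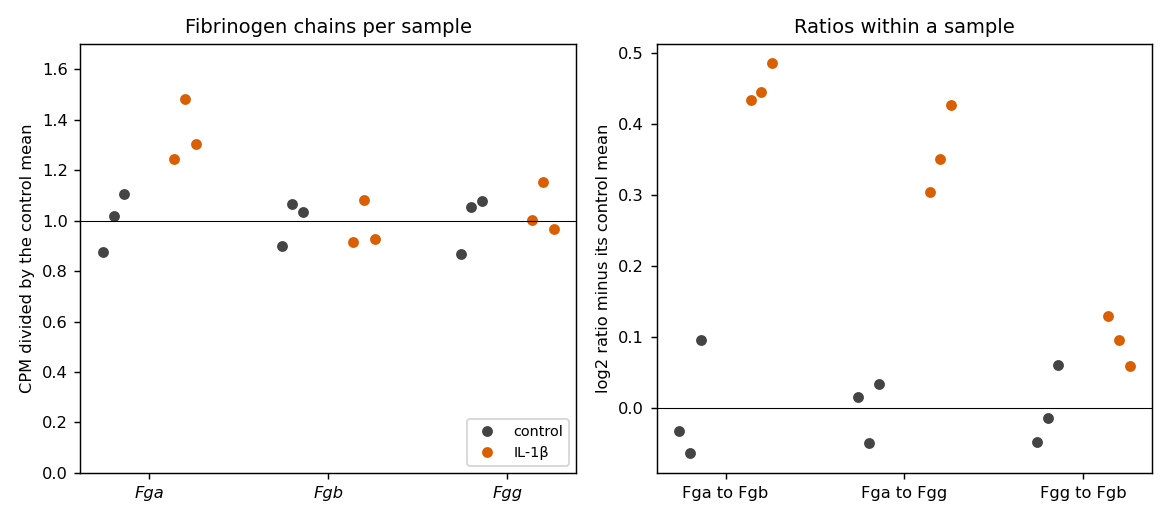
Left, CPM of each fibrinogen chain divided by its control mean (vertical axis from 0) in each control and IL-1β sample. Right, log2 ratios between chains within each sample, minus the control mean of that ratio. Only the Fga points and the ratios with Fga separate the groups, by 0.45 against Fgb and 0.36 against Fgg.

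The windows around the start sites of the chains are shown because the genes are neighbours and encode one protein. They come from the same RefSeq set and have the same length, with matches to the motifs named above in capitals. They are chr3:83025903-83026202, plus strand, for Fga, chr3:83049814-83050113, minus strand, for Fgb and chr3:83007474-83007773, plus strand, for Fgg.
Fga: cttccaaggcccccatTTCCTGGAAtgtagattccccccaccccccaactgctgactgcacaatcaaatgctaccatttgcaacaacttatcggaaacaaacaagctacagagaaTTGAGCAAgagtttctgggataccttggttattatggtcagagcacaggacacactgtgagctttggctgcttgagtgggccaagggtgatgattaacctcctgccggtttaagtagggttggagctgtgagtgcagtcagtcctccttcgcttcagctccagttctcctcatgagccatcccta
Fgb: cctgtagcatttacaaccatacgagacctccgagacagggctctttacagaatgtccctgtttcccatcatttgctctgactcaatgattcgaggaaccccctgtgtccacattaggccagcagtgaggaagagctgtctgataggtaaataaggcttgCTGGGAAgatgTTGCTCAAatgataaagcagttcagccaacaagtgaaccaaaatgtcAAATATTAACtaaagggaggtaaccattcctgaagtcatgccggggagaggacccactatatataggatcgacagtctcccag
Fgg: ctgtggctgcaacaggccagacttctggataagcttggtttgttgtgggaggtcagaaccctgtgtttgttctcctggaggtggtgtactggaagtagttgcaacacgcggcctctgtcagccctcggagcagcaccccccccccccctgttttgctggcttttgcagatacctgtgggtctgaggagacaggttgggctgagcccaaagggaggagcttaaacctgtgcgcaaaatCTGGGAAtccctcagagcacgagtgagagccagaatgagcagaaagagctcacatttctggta
The Fga window holds a STAT3 match from base -234 to base -226, counted from the start, and a C/EBP match from -135 to -128. The Fgb window holds an IL-6 response element match from -91 to -85, a C/EBP match from -80 to -73 and an HNF1 match from -33 to -24. The Fgg window holds 1 IL-6 response element match, from -13 to -7. The RefSeq start used here lies 73 bases upstream of the deposited start of Fgb and 172 bases upstream of that of Fgg, so these positions depend on the start chosen.

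Macroglobulins are large plasma proteins that trap proteases of many kinds. Pzp, the abundant macroglobulin of mouse plasma, was at 1176, 1149 and 1096 CPM in controls and 976, 986 and 918 CPM after IL-1β. The groups were apart by more than the spread within either, at 1140.5 ± 40.4 and 960 ± 36.9 CPM (SD, n = 3). Its log2 fold change was -0.25 (SE 0.059, adjusted p = 0.0046, edgeR), called in all 6 fits that left out a library. The predicted gene Gm10069 overlaps Pzp on the opposite strand.

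Mug1 and Mug2 encode murinoglobulins, single-chain relatives of the macroglobulins. Mug1 was at 317 to 330 CPM in controls and 289 to 299 CPM after IL-1β, and Mug2 at 105 to 122 and 99.0 to 103 CPM. Neither passed the test, with log2 fold changes of -0.14 (SE 0.062, adjusted p = 0.18, edgeR) and -0.13 (SE 0.080, adjusted p = 0.37, edgeR), although in both no IL-1β sample reached the controls. Of their 3′ windows, 20% for Mug1 and 41.8% for Mug2 occur in the other gene or in murinoglobulin pseudogenes. Their sum was 434 ± 15.3 CPM in controls and 396 ± 4.77 CPM after IL-1β (SD, n = 3), with a log2 fold change of -0.13 (SE 0.061, adjusted p = 0.176, edgeR). The log2 ratio of Mug1 to Mug2 differed by -0.01 between the groups (p = 0.8, exact permutation test). A2m had 2 counts in 1 control library and 0 in the other 5 libraries and was not tested.

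Hgfac and Habp2 encode related plasma serine proteases, and the product of Hgfac activates hepatocyte growth factor. Habp2 was at 28.1, 23.4 and 22.5 CPM in controls and 13.3, 17 and 21.7 CPM after IL-1β. The IL-1β samples were widely spread and the highest nearly reached the controls. The log2 fold change was -0.50 (SE 0.16, adjusted p = 0.0321, edgeR), a call lost without control replicate 1 (adjusted p = 0.103), control replicate 2 (0.0556), IL-1β replicate 1 (0.226) or IL-1β replicate 2 (0.118). Habp2 overlaps Nrap and Snora19 on the opposite strand. Hgfac was at 68.9 to 77.2 CPM in controls and 57.2 to 66.0 CPM after IL-1β, without overlap, but its log2 fold change of -0.25 (SE 0.089, adjusted p = 0.073, edgeR) missed the threshold, and passed it with total-count scaling (adjusted p = 0.0225).

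Another 53 genes that act on these proteins were listed by function, and 38 of them were tested. Of these, 8 were higher and 9 lower, with a median log2 fold change of -0.07, whereas 6.97% and 6.44% of all tested genes were higher and lower and their median was -0.002. These shares are also the background for the shorter lists that follow. Among 7 tested regulators of plasminogen activation and plasminogen receptors, 2 were higher and 3 lower, including S100a10, part of a cell-surface plasminogen receptor, at -0.37 (adjusted p = 0.0024, edgeR). Of 9 tested genes for processing and secretion of factors, 2 were higher and 0 lower. They were Pcsk5, a proprotein convertase, at 1.25 (adjusted p = 0.0051), and Mcfd2, which helps export factors V and VIII from the endoplasmic reticulum, at 0.30 (adjusted p = 0.0264, called in 3 of 6 fits that left out a library). In 4 tested other proteins with carboxylated glutamate residues, Gas6 was higher at 0.34 (adjusted p = 0.0018), and 2 were lower, among them Prrg2 at -0.49 (adjusted p = 0.0036).

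Of 8 tested other plasma proteins of haemostasis, 1 was higher and 4 were lower. The higher one was Fgl1, a fibrinogen-related protein of hepatocytes, at 0.40 (adjusted p = 1.8e-04, edgeR), and C4bp, a complement regulator, was lower at -0.66 (adjusted p = 6.3e-05). The hepatocyte growth factor pathway had 4 tested genes, of which Spint2, an inhibitor of its activating proteases, was higher at 0.66 (adjusted p = 0.0187), with overlapping groups and a call in 2 of 6 fits that left out a library. Neither of the 2 tested thrombin and kinin receptors passed the test.

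Markers of cell types were read beside these values. The summed level of 10 hepatocyte markers was 33912 to 38120 CPM in controls and 33479 to 35443 CPM after IL-1β. Of the 10, 7 were lower and 1 higher (6.44% and 6.97% of all tested genes), with a median log2 fold change of -0.30. The most abundant were Alb, at -0.20 (adjusted p = 0.0113, edgeR), and Hpx, at 0.38 (adjusted p = 0.0027). Of the 13 Kupffer cell or macrophage markers, none of the 10 tested passed, with a median log2 fold change of 0.38. The most abundant were Cd68 at -0.06 and Ctss at -0.02, and the sum of the list was 247 to 279 CPM and 254 to 287 CPM. Of 11 stellate cell or fibroblast markers none of the 4 tested passed, with a median of 0.08, led by Ecm1 at -0.29 and Sparc at 0.02, and their sum was 60.9 to 66.5 CPM and 61.8 to 63.8 CPM. The 10 tested endothelial markers had a median of -0.41, with 2 lower and 1 higher, although the most abundant were Eng at 0.02 and Lyve1 at 0.45 (adjusted p = 0.0274). The 6 cholangiocyte markers were at 317 to 329 CPM in controls and 236 to 240 CPM after IL-1β in sum, with 1 of 2 tested lower, led by Spp1 at -1.20 (adjusted p = 4.4e-12) and Sox9 at 0.21 (adjusted p = 0.0519). The 6 platelet or megakaryocyte markers, with Ppbp and Gp9 at 0 in all libraries, were at 4.21 to 4.89 CPM and 8.55 to 9.30 CPM in sum, 1 of 3 tested being higher, and the most abundant were Itga2b at -0.08 and Itgb3 at 1.12, neither past the test. Of 5 neutrophil markers in the table, S100a9, Ngp, Mpo and Elane were at 0 in all libraries, and S100a8 made the sum 0 CPM in controls and 2.03 to 4.74 CPM after IL-1β. Mesothelial markers were at 0 to 0.107 CPM in sum, with Upk3b, Msln and Wt1 at 0. The part of these cell types in the values of the 43 genes was not tested.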

How the data were processed

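The authors aligned single-end reads of 75 nt with Bowtie2 and, per the labels, normalized with edgeR (builds mm10 and GRCm38 in the submitters' processing notes). They deposited raw read counts for 23282 genes in 6 samples, beside log2 normalized values, their group averages, fold changes and p-values of their own comparison, which were not used. The counting tool, its use of strand and its handling of reads that match several genes are not given in the sources used here. Groups came from the sample labels.

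The deposited counts were fitted by edgeR 4.0.16 in R 4.3.3 (filterByExpr, TMM, quasi-likelihood test without covariates, two-sided, Benjamini-Hochberg adjustment over 11657 genes). The SE is the size of the log2 fold change over the root of its F statistic. The procedure was tested on simulated data. Ratios used log2 of CPM plus 1 and exact permutation tests (Python 3.11.15, scipy 1.17.1). No count column lacked a sample. Replicate libraries differed by more than sampling noise. Alternatives were DESeq2 1.42.0, limma 3.58.1 with a prior count of 1, total-count or upper-quartile scaling, testing without a filter or with 10 or more counts required in all samples, a fold over 1.5, the replicate number as a block and leaving out each sample.

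The 43 genes, the 53 other pathway genes and the marker lists were chosen with earlier results of these data known. Genes reaching 10 CPM in the higher group were described singly, at most 2 called genes with the smallest adjusted p were named per list of other genes, and the 2 most abundant per marker list. A few of the other pathway genes are not reported here. Promoters came from RefSeq (GRCm38.p6), where 34 of the 43 genes matched, and 3′ windows from GENCODE transcripts. All 43 deposited positions overlapped the GENCODE gene on GRCm38. Totals of 9538741 to 11105408 counts per library limit precision, and the 3-count limit covers counting error only.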

Additional observations from a re-analysis of the deposited data

How the results depend on the processing

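With all samples kept and no fold threshold, no called gene among the 43 lost its call under any alternative in which it was tested (Thbd was not tested where every sample had to hold at least 10 counts), and the single values of the genes stayed on the same side of the threshold in 257 cases, passed it in 9 and changed sign in 1 (Ggcx, -0.016 with total-count scaling). The count of lower genes was 6 with a fold over 1.5. Total-count scaling gave 20 lower and 5 higher genes and moved the summed Mug1 and Mug2 past the threshold, at -0.19 (adjusted p = 0.0485, edgeR). Leaving out each sample gave 9 to 14 lower and 3 to 6 higher genes, and in these fits calls were lost in 44 cases. Values whose sign changed were Fgb (-0.11 to 0.017), Fgg (-0.036 to 0.11), Ggcx (-0.075 to 0.17), Tfpi (-0.90 to 0.054), Plau (-0.38 to 0.31) and the summed fibrinogen chains (-0.10 to 0.024). The difference in the log2 ratio of Mug1 to Mug2 changed sign as well (-0.071 to 0.027). The summed Kng1 and Kng2 ranged from -0.24 to -0.14. Over the whole table, 769 genes passed with a fold over 1.5, and 1131 to 1596 passed without single samples.

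Over all tested genes, samples that share a replicate number hardly deviated together from their group means (correlations of 0.0616, 0.00793 and 0.0038). The labels do not say what a number marks. A shared effect that is small or limited to some genes would not be seen in these correlations, so they do not settle whether samples are paired. Of the 6 samples, 2 correlated best with their own number in the other group. The replicate block called 1671 genes against 1563 and gave 6 higher and 18 lower genes among the 43, adding F3 (adjusted p = 0.0497) and Serpinc1 (adjusted p = 0.0433). With the block, the exact p of the ratios of Fga to Fgb and Fga to Fgg was 0.25, the smallest that 3 pairs allow.

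Genes under 10 CPM in both groups (11 of the 43) had few counts, and their differences could be detected only where large. The cause of calls lost without a sample was not tested. With 3 samples per group, outliers were not tested.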
